A study of Homo sapiens with 9 samples.

Results

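The 45S ribosomal DNA of chromosome 21 was described from the peak lists of a KAS library and 4 thrombin pulldown libraries. Members were chosen by the measured summits, the positions of greatest read height, and are the peaks whose summit lay between 8190000 and 8490000 on GRCh38. There were 92 of them among 37375 peaks in the 5 lists, and all 92 came from the KAS list of 34247 peaks; the pulldown lists held 0. The window was chosen with these peaks known, so their number and fold enrichment are given as a description, without a test. All libraries came from HL-60, an established human promyelocytic leukaemia line. For the pulldowns the line was differentiated and given 500 nM phorbol myristate acetate (PMA) for 4 h, which makes such cells release webs of DNA called neutrophil extracellular traps (NETs). The 4 pulldown libraries hold NET DNA that came down with biotinylated thrombin, supplied at 1 µM for 1 h, after formaldehyde fixation. The 4 input libraries, from DNA set aside before the pulldown, were not analysed here. In the single KAS library, N3-kethoxal at 5 mM for 10 min tagged unpaired guanines after the same 4 h induction, for which the label repeats no PMA dose and names no thrombin; the tagged, single-stranded DNA was then captured. Peaks measure DNA only, so the labelled cell type was not checked against marker genes.

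Ribosomal DNA lies in tandem arrays on the short arms of the acrocentric chromosomes. RNA polymerase I transcribes each unit into a 45S precursor, from which the 18S, 5.8S and 28S rRNAs of the ribosome are cut. The pieces cut away are the external transcribed spacers at either end (5′ ETS and 3′ ETS) and the internal ones (ITS1 and ITS2) on either side of 5.8S. Units are separated by a long intergenic spacer, which holds the promoter and terminators. Arrays hold many nearly identical units and the reference places only a few of them, so reads of unplaced units cannot be told apart from reads of the placed ones.

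The RefSeq table of GRCh38.p14 places 3 complete 45S genes in the window, in the order RNA45SN2 (chr21:8205988-8219302), RNA45SN3 (chr21:8389035-8402343) and RNA45SN1 (chr21:8433222-8446572). Each holds its 18S, 5.8S and 28S gene in rising coordinates, which gives the direction of transcription. Another, partial copy lies between RNA45SN2 and RNA45SN3 and is annotated as pseudogenes: RNA18SP5 (chr21:8253842-8255704), RNA5-8SP10 (chr21:8256780-8256936) and LOC110467529, a 28S pseudogene (chr21:8258134-8260930). Its transcript start is not annotated and was taken to lie as far before 18S as in RNA45SN2. From RNA18SN2 to RNA18SP5 is 44211 bases, and from RNA18SN3 to RNA18SN1 44210 bases, so the placed copies form 2 pairs of neighbours with the same spacing.

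The RefSeq sequences at hand for this window are short hairpins of annotated miRNA genes. The window holds 6 miRNA genes, all of which share bases with a KAS peak, and the 3 with a sequence at hand are shown. Of these, the first pair lies just before the 45S start and the third inside the 5′ ETS. Each is written 5′ to 3′ on the plus strand as RNA, with the bases inside a KAS peak in capitals.
MIR6724-2 (chr21:8249505-8249596): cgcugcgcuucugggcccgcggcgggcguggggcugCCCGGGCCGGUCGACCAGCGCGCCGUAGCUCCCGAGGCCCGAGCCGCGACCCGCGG
MIR6724-4 (chr21:8432530-8432621): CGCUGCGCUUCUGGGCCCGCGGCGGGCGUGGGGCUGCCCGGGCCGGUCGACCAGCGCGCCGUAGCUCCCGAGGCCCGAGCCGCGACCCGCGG
MIR10396B (chr21:8436324-8436374): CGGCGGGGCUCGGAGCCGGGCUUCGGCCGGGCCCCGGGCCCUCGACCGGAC
The MIR6724 hairpins are identical at 92 of 92 bases, and 42.4% of their bases are G, the base that kethoxal tags. In MIR10396B 45.1% of bases are G. G and C together make up 83.7% of MIR6724 and 86.3% of MIR10396B, so both strands are rich in G. Over 1562 hairpins of the RefSeq table the median share of G is 27.0%, and 97.2% and 98.1% of hairpins have a smaller share of G than MIR6724 and MIR10396B. The repeat named in the series title, ATTCC, was searched as AUUCC and, for the other strand, as GGAAU. None of these 3 hairpins holds either, while 9.81% of 591 hairpins within 10 bases of the length of MIR6724 and 3.45% of 145 within 10 bases of that of MIR10396B do. These are descriptions of short windows, and the rest of the unit's sequence was not analysed here.

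Single-stranded DNA peaks ran through both pairs of placed copies. They began at 8202641 and ended at 8472359, with none in the 126 kb between 8259232 and 8385678, where no rRNA gene is annotated beyond the end of the 28S pseudogene. The reference sequence was not used here, so runs of unknown bases, over which no peak can be called, were not located in this or any other peak-free stretch. The RNA45SN2 copy held 23 peaks, the pseudogene copy 12, the RNA45SN3 copy 26 and the RNA45SN1 copy 31. A copy was taken to begin 7000 bases before its 45S start. Of 25 annotated genes in the window, 20 shared at least 1 base with a KAS peak, against 17.2% of 59616 placed genes; the window was chosen for its peaks, so nothing is read from this difference. The 5 genes without a KAS peak were the 5.8S genes or pseudogene of the 4 copies and LOC124904993, a long non-coding RNA before the first copy. The KAS peaks nearest outside the window had their summits 232 kb before and 196 kb after it, with folds of 3.59 and 3.31.

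**Figure D1:**
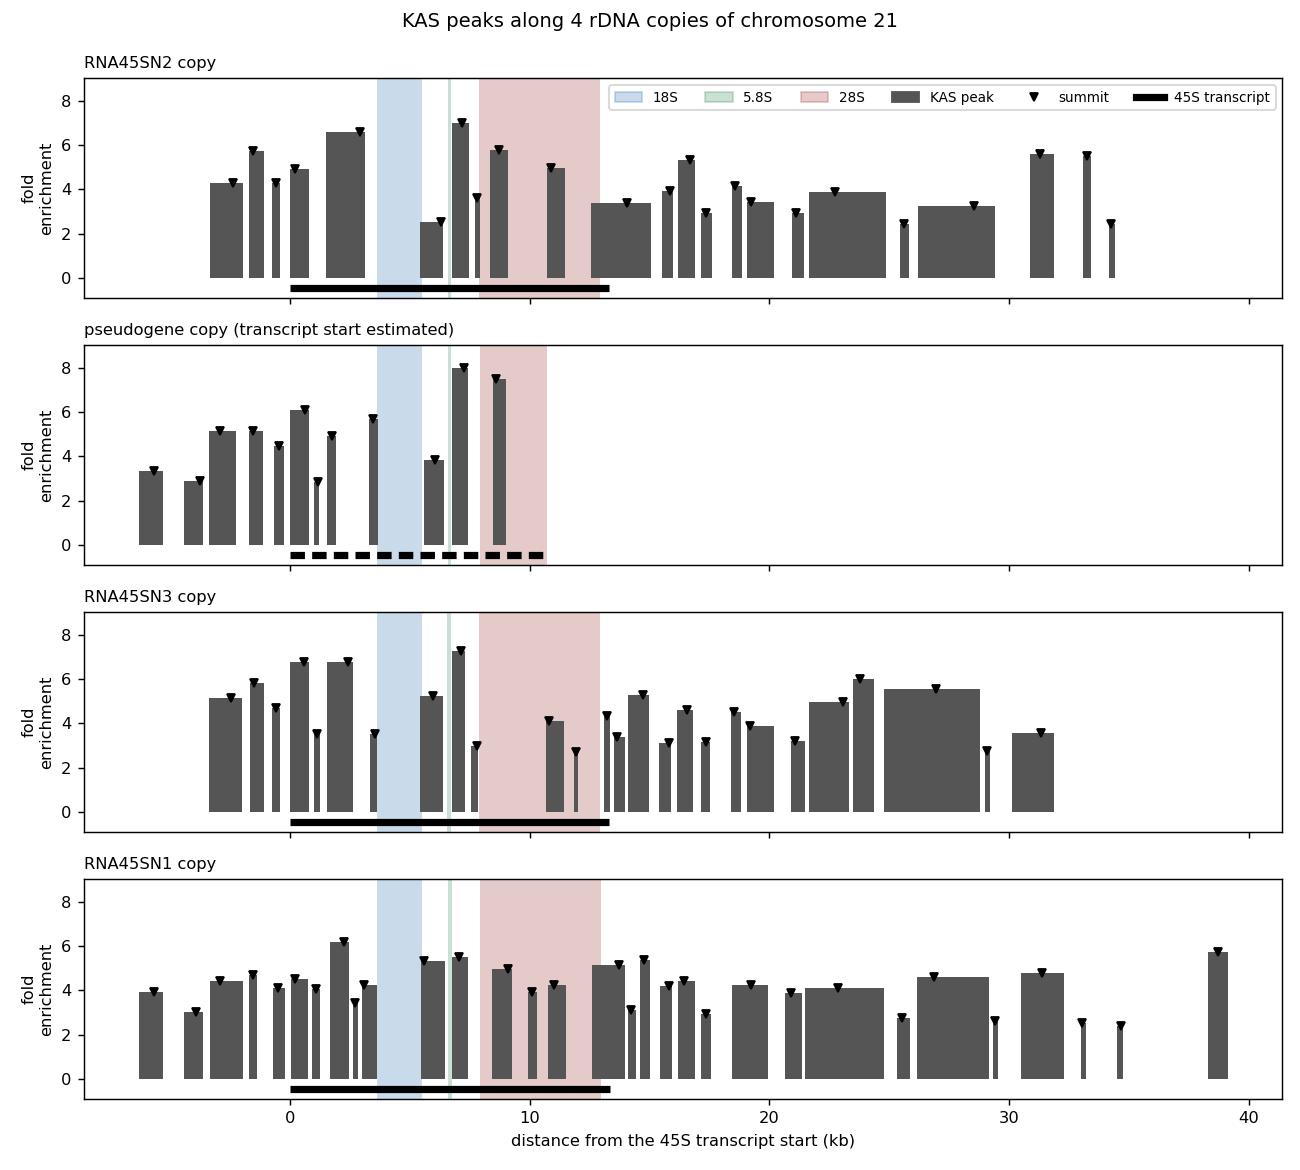
KAS peaks along the 4 placed copies. The x axis is the distance in kb from the 45S transcript start and the y axis the authors' fold enrichment; bars span each peak, triangles mark summits, shading marks 18S, 5.8S and 28S and the black line the 45S transcript. The 18S shading is empty of summits in each copy, and peaks run on through the spacer after the transcript.

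The peaks were tall and wide, but not high in fold enrichment. Pileup, the height at the summit, ran from 53 through a median of 101 to 200 in the window, while the median over all KAS peaks was 10. Of the 350 KAS peaks with a pileup of at least 99, 52 lay in the window. Their width had a median of 678 bases against 248 bases for the whole list, and 20 of 92 were at least 1000 bases wide (21.7%), as were 1.56% of all KAS peaks. Fold enrichment, the authors' ratio of the peak over the caller's background, ran from 2.37 through 4.27 to 8.004, against a median of 5.43 for all KAS peaks, and 19 of 92 exceeded that median. Pileup divided by fold had a median of 24.7 in the window and 1.74 over the list. It is only a rough stand-in for the height of that background, least exact for low peaks. On the rest of chromosome 21 from 5 to 13 Mb, its short arm and centromeric region, the 224 KAS peaks had a median pileup of 19.0, a median fold of 5.67 and a median ratio of pileup to fold of 3.25. The rDNA peaks thus stood out in height and in the background beneath them rather than in their ratio.

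**Figure D2:**
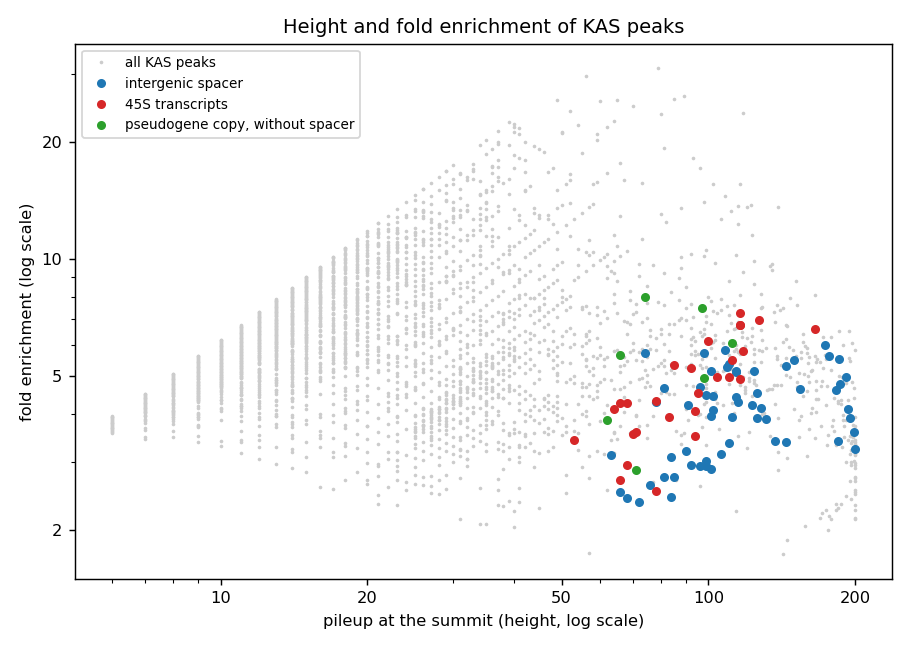
Pileup at the summit (x axis, log scale) and fold enrichment (y axis, log scale) of KAS peaks. Grey points are all KAS peaks and coloured points the 92 rDNA peaks, which sit at pileups of 53 to 200 and folds of 2.37 to 8.004, to the right of most of the list.

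Within the 45S transcripts, peaks lay mainly in the pieces that are cut away, and less over the rRNAs themselves. By summit, 27 of the 92 peaks (29.3%, exact Clopper-Pearson 95% interval 20.3 to 39.8) fell in the 3 complete 45S genes, 58 in the intergenic spacers and 7 in the pseudogene copy from its estimated start onward. The 5′ ETS, ITS1, ITS2 and 3′ ETS together held 20 of the 27 summits in 18722 bases, or 1.07 per kb, and 72.3% of their bases were under a peak. The 18S, 5.8S and 28S genes held 7 summits in 21253 bases, or 0.329 per kb, with 25.4% of bases under a peak. No test was made over these peaks, since the copies are nearly identical and do not count as independent. The interval above counts each peak as independent, so it does not measure the uncertainty of that share.

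**Figure D3:**
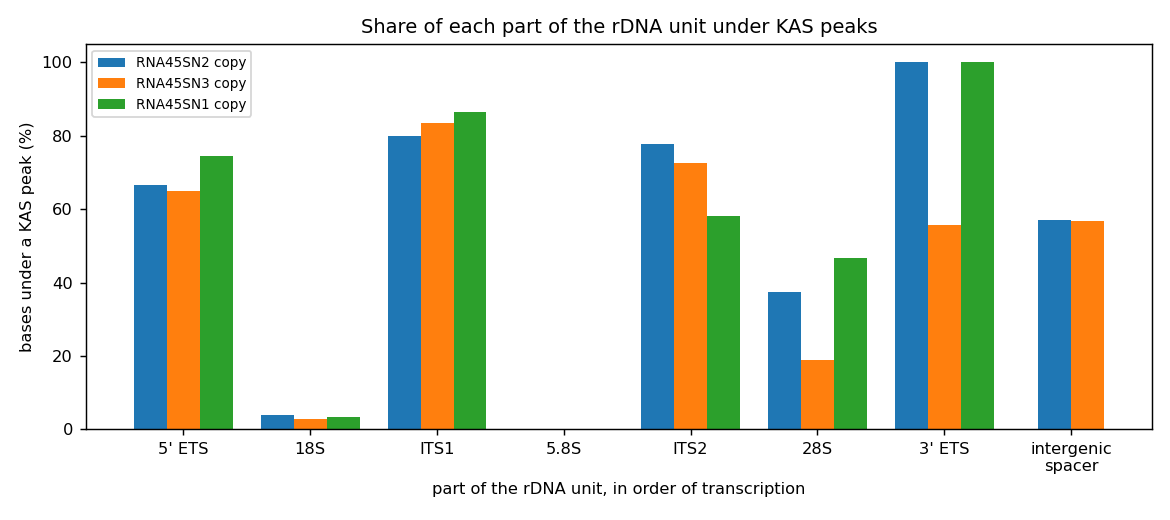
Share of bases under a KAS peak (y axis, percent) in each part of the unit (x axis, in order of transcription), with 1 bar for each complete copy and, for the intergenic spacer, for the spacers after RNA45SN2 and RNA45SN3. The bars for 18S stay below 4% and those for 5.8S are at 0, between tall bars for the transcribed spacers.

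Ahead of the transcript, each copy had a peak with its summit about 1.5 kb before the 45S start and another about 0.5 kb before it. The former lay 1556 bases before the start in the RNA45SN2 copy, 1518 in the RNA45SN3 copy, 1530 in the RNA45SN1 copy and 1529 in the pseudogene copy. Its fold was 5.72, 5.83, 4.69 and 5.15 in the same order. The latter lay 568, 572, 509 and 472 bases before the start, with folds of 4.29, 4.67, 4.09 and 4.46. It is the peak over MIR6724, an miRNA gene repeated in each copy: MIR6724-1, MIR6724-3 and MIR6724-4 lay wholly inside it, and 56 of 92 bases of MIR6724-2 did, as the capitals above show. The summit lay past the hairpin's end by 14, 10, 92 and 131 bases for MIR6724-1, -3, -4 and -2.

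The stretch just before the transcript start was mostly free of peaks. The core promoter, which lies at the start, was not delimited here. Of the 250 bases before the 45S start, 8 were under a peak in RNA45SN2, 0 in RNA45SN3 and 62 in RNA45SN1, and 14 in the pseudogene copy. A further peak began close to the start in each copy. In RNA45SN2 it began 8 bases before the start and had a fold of 4.91. In RNA45SN3 it began 22 bases after the start and had a fold of 6.77, and in RNA45SN1 32 bases after it, with 4.53.

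The 5′ ETS, the leader removed in the first steps of processing, was covered to 66.6% in RNA45SN2, 64.9% in RNA45SN3 and 74.6% in RNA45SN1, with 2, 4 and 5 summits. A single peak of 1615 bases filled much of it in RNA45SN2, with a fold of 6.59, a pileup of 165 and a −log10 q of 73.1, the largest −log10 q in the window; it covers the miRNA gene MIR3648-1 whole. In RNA45SN3 the 5′ ETS held 2 peaks of nearly equal fold, 6.77 and 6.75, beside 2 of 3.53 and 3.51. In RNA45SN1 folds ran from 3.41 to 6.16. The peak over MIR10396B, with a fold of 4.26 and a pileup of 66, had its summit at 8436324, the first base of the hairpin printed above.

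No summit fell in an 18S gene, which encodes the rRNA of the small ribosomal subunit. Peaks reached into it only at its edges, over 71 of 1869 bases (3.80%) in RNA18SN2, 54 (2.89%) in RNA18SN3, 62 (3.32%) in RNA18SN1 and 43 of 1863 bases (2.31%) in the pseudogene RNA18SP5. A peak stood on either side in each copy. In RNA45SN3 the last summit before 18S lay 98 bases ahead of it with a fold of 3.51, and the next lay 480 bases past its end with 5.24. In RNA45SN1 these distances were 552 and 84 bases, with folds of 4.26 and 5.34. In RNA45SN2 they were 725 and 807 bases, with folds of 6.59 and 2.53, and in the pseudogene copy 178 and 544 bases, with 5.66 and 3.85. The peak-free stretch was 1815 bases long in RNA45SN3, 1818 in RNA45SN1, 1888 in the pseudogene copy and 2300 in RNA45SN2. The lists give no read height between peaks, so the signal over 18S itself is unknown.

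The 5.8S gene, which encodes the short rRNA that pairs with 28S, had no base under a peak in any of the 4 copies. At 157 bases it is 1.18% of the 45S bases, so a lack of summits there is not informative at this depth. The spacers around it were covered: ITS1 to 79.9%, 83.6% and 86.4% in RNA45SN2, RNA45SN3 and RNA45SN1, and ITS2 to 77.7%, 72.5% and 58.0%.

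ITS2 held the peak of highest fold in 3 of the 4 copies. In RNA45SN2 it reached 6.98 with a pileup of 127, in RNA45SN3 7.26 with 116, and in the pseudogene copy 8.004 with 74, the highest fold in the window. In RNA45SN1 the ITS2 peak had a fold of 5.50 with a pileup of 112, below the 6.16 of a peak in its 5′ ETS. The ITS1 peak varied more, at 2.53 in RNA45SN2, 5.24 in RNA45SN3, 5.34 in RNA45SN1 and 3.85 in the pseudogene copy.

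The 28S gene, for the rRNA that forms the core of the large subunit, was partly covered and differed between copies. Peaks lay over 37.3% of RNA28SN2 (chr21:8213888-8218941), 18.9% of RNA28SN3 (chr21:8396926-8401980) and 46.8% of RNA28SN1 (chr21:8441146-8446211). In RNA28SN2 there were 2 summits, with folds of 5.79 and 4.96. RNA28SN3 also had 2, with 4.10 and 2.70, and RNA28SN1 had 3, from 3.93 to 4.95. The copies shared a peak 7.20 to 7.35 kb from the 18S start, with folds of 4.96, 4.10 and 4.25 in RNA28SN2, RNA28SN3 and RNA28SN1. RNA28SN3 lacked the earlier peak of fold 5.79 in RNA28SN2 and of 4.95 in RNA28SN1; instead 2832 bases from the end of ITS2 onward were free of peaks. Of the 27 summits, 7 were in 28S (25.9%), which makes up 38.0% of the 45S bases.

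At the 3′ end, peaks ran across the end of the transcript. The 3′ ETS was covered whole in RNA45SN2 and RNA45SN1, by peaks of 2490 and 1358 bases that had their summits past the end of the 45S gene, with folds of 3.39 and 5.15. In RNA45SN3 a peak of 229 bases with a fold of 4.32 had its summit inside, and 55.6% of bases were covered.

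The intergenic spacer held most of the peaks, and the tallest. The spacer from RNA45SN2 to the pseudogene copy held 18 summits and was covered to 57.2% of its 30.9 kb, and that from RNA45SN3 to RNA45SN1 also held 18 and was covered to 56.7%. This is 0.583 summits per kb in the spacers, against 0.675 in the 45S genes. By bases under a peak the order was the reverse, since 47.3% of the bases of the 45S genes were covered. Spacer peaks had a median pileup of 109.5 and a median fold of 4.12, against 94.0 and 4.53 for peaks in the 45S genes. The tallest had a pileup of 200, the largest value in the KAS list, which 32 KAS peaks share, this 1 among them. Whether 200 is a cap is not stated. This peak lay 28.5 kb after the start of RNA45SN2 with a width of 3241 bases and a fold of 3.24. The widest peak, of 4001 bases, lay 27.0 kb after the start of RNA45SN3, with a pileup of 185 and a fold of 5.54. In the RNA45SN1 copy peaks of 3278 and 3024 bases lay 22.9 and 26.9 kb after the start, with folds of 4.12 and 4.59. In each complete copy the widest peak of the spacer lay between 22.9 and 28.5 kb after the start.

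Later in the spacer lie pseudogenes of CDC27, which encodes a subunit of the anaphase-promoting complex, and peaks thinned out over their later parts. A peak with a pileup of 150 and a fold of 5.50 overlapped the beginning of CDC27P9. CDC27P10 held the summit of a peak with a pileup of 199 and a fold of 3.58, and the peak of 4001 bases reached into it. The stretch without peaks measured 3507 bases at CDC27P9 (chr21:8239234-8243077), 6018 bases at CDC27P10 (chr21:8417660-8426101) and 3570 bases at CDC27P11 (chr21:8467927-8470663). Peaks covered 10.9% of CDC27P9, 25.1% of CDC27P10 and 1.17% of CDC27P11.

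When the copies were laid over each other from the 18S start, between 50.0% and 61.9% of the peaks in the stretch that a pair of complete copies both span fell at the same place. That stretch was set for each pair by the first and last summits of both copies, extended by 200 bases. Over all peaks of a copy the shares ran from 45.2% (14 of 31 in the RNA45SN1 copy, matched with RNA45SN2) to 60.9% (14 of 23 in the RNA45SN2 copy, matched with RNA45SN1). Matching summits within 200 bases of each other in the shared stretch, 13 of 21 peaks of the RNA45SN2 copy had a partner among 26 in the RNA45SN3 copy (61.9% and 50.0% of each), with a median distance of 34.0 bases. RNA45SN2 and RNA45SN1 matched at 14 of 23 and 26 peaks, and RNA45SN3 and RNA45SN1 at 15 of 26 and 25. The fold at matched positions was alike: the median ratio was 0.961 for RNA45SN2 over RNA45SN3, 1.09 for RNA45SN2 over RNA45SN1 and 0.987 for RNA45SN3 over RNA45SN1. Ratios lay within 1.5 times either way at 12 of 13, 12 of 14 and 14 of 15 positions. The exceptions were in the spacer or the 5′ ETS, up to a ratio of 2.18 between RNA45SN2 and RNA45SN1. Folds of all 92 peaks lay close together, with quartiles of 3.39 and 5.25. Neither the ratios nor the matched shares were set against a chance level, so nothing further is read from them. Of the RNA45SN2 peaks, 8 had a partner in both other complete copies, 2 of them in the 45S gene (in ITS2 and 28S) and 6 in the spacer. The ITS2 position had a fold of 6.58 ± 0.948 (SD over 3 copies) and the 28S position 4.44 ± 0.462 (SD over 3 copies). These SDs are between copies in 1 library, which is no replicate error. How reads that fit several copies equally well were placed is not stated in the labels, so the copies cannot be told apart as separate measurements.

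**Figure D4:**
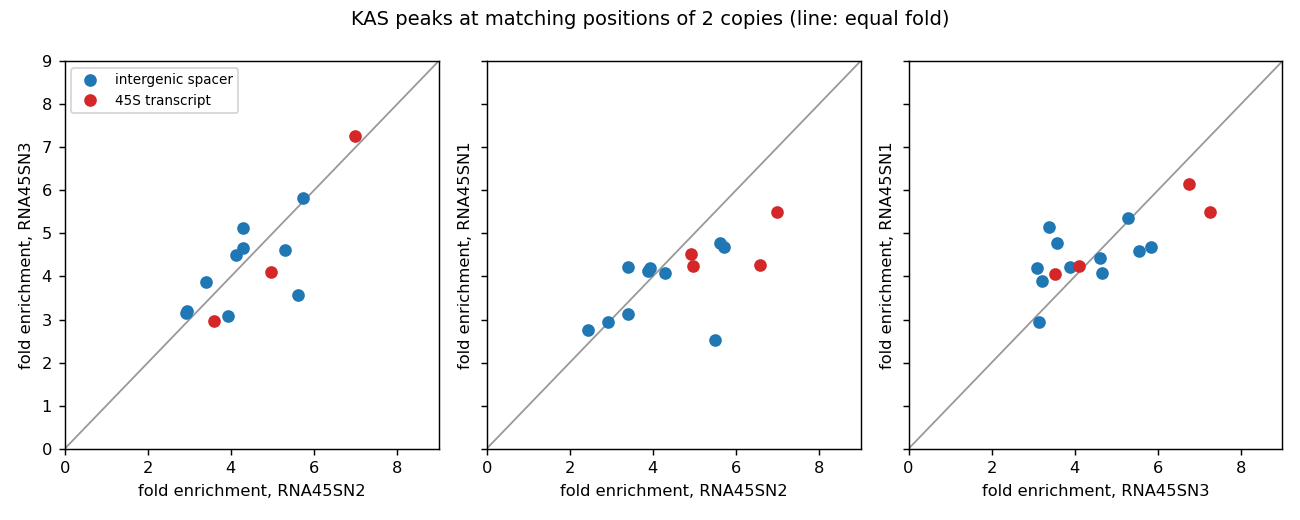
Fold enrichment of KAS peaks at matching positions of 2 copies (x and y axes), with 1 point for each matched pair, coloured by where the peak lies in the copy on the x axis. The line marks equal fold, and 12 of 13, 12 of 14 and 14 of 15 points lie within 1.5 times of it.

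None of the thrombin pulldown lists had a peak in this rDNA. Pulldown replicates 1 to 4 had 0 of 886, 0 of 570, 0 of 790 and 0 of 882 peaks in the window, and none of the 4 lists reached into it with any base. A count of 0 allows a share of up to 0.415%, 0.645%, 0.466% and 0.417% of the lists, the upper ends of exact 95% intervals. For the 3128 pulldown peaks together, 3 divided by their number gives a limit of 0.0959%. Peaks of different lists overlap, so that last value is too low. For KAS the share was 0.269% (exact 95% interval 0.217 to 0.329, with each peak counted as independent). The window was chosen with the KAS peaks known, so the KAS share is no independent yardstick. At that share the pulldown lists would hold 2.38, 1.53, 2.12 and 2.37 rDNA peaks, and 8.40 for the 4 lists together. No single list is long enough to show a difference from KAS, and a difference for the lists together was not tested. Background was low as well: 0.0117%, 0.0134%, 0.0268% and 0.0268% of all placed genes shared a base with a peak of replicates 1 to 4. Since no label names separate cultures for the replicates, the spread between these lists may be technical.

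Pulldown peaks did occur nearby on the same chromosome. From 5 to 13 Mb outside the window, there were 67, 27, 53 and 55 peaks in replicates 1 to 4. Their mean was 50.5 ± 16.8 (SD, n = 4), and 6.46% of all pulldown peaks were there. The nearest summits lay 170 to 246 kb before the window, with folds of 3.89, 3.72, 3.30 and 3.57 in replicates 1 to 4, and 756 to 759 kb after it, with folds of 2.61, 2.42, 1.91 and 2.06. Each pulldown list thus had peaks on both sides of the rDNA and none in it. The sources used here do not state if an input was the caller's control.

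**Figure D5:**
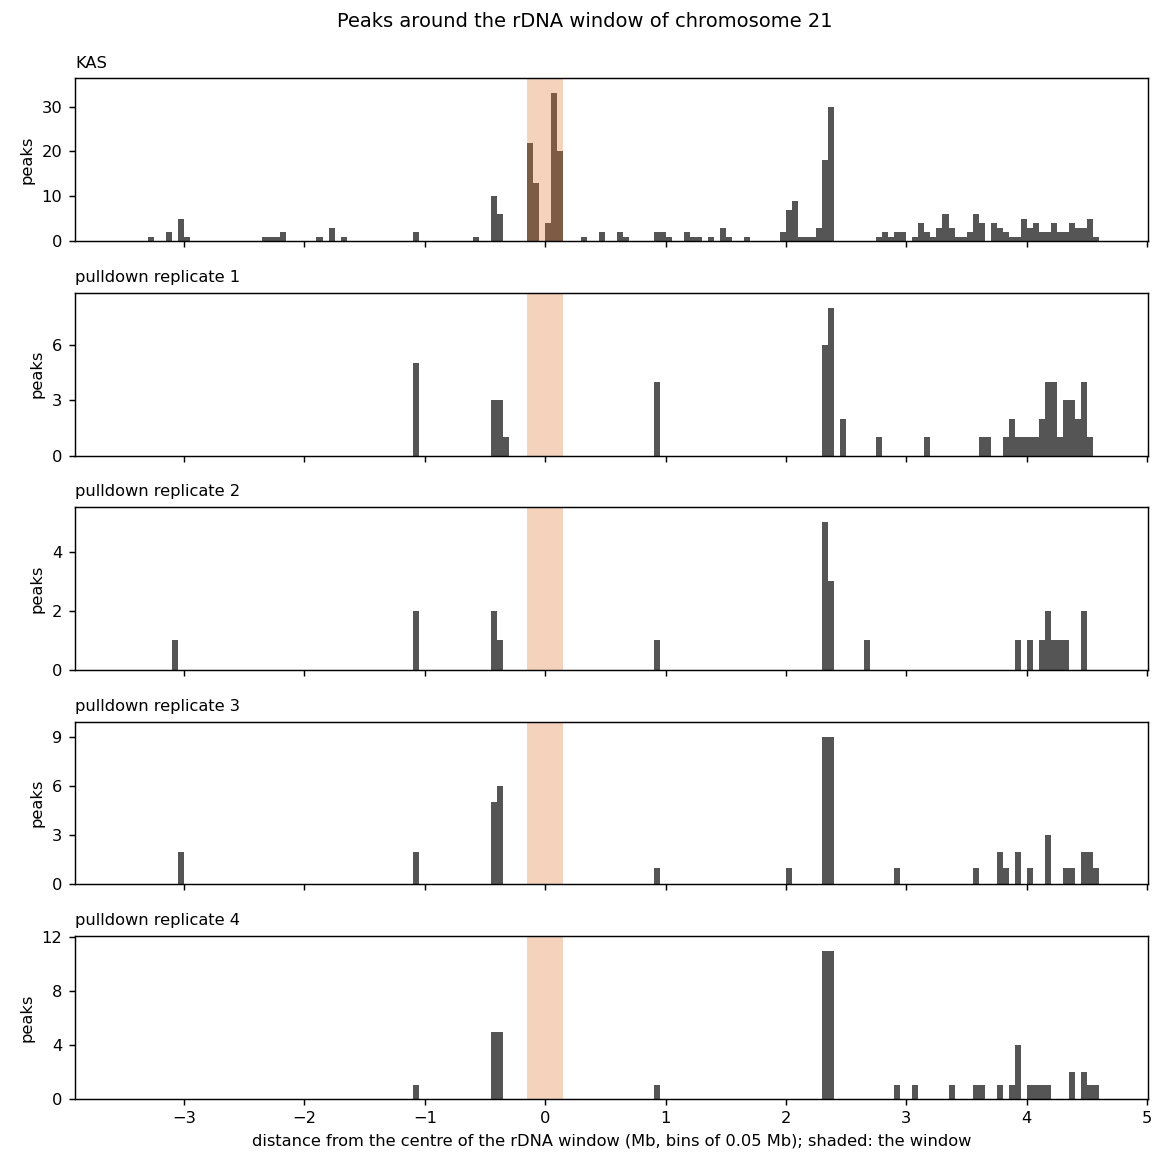
Number of peaks (y axis, scaled for each panel) in bins of 0.05 Mb along chromosome 21, by distance in Mb from the centre of the rDNA window (x axis), for the KAS library and the 4 pulldown replicates. Only the KAS panel has peaks in the shaded window, while all 5 panels have peaks before and after it.

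The RefSeq table also lists 23 pseudogenes of 18S, 5.8S or 28S placed outside the window on the chromosomes of the lists. They are 150 to 4213 bases long, and 11 are under 200 bases. KAS peaks shared a base with 0 of these 23, against 17.2% of all placed genes, a share that is not adjusted for gene length. Pulldown peaks shared a base with 0, against at most 0.0268% of all genes in any list, so that this 0 is near the background. RNA45SN4, RNA45SN5 and 6 further pseudogenes are not placed on the chromosome sequences of the lists and were not analysed here.

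By KAS peaks per kb of gene, the 45S genes were near the top among genes of at least 5 kb. Shorter genes, where 1 peak gives a high value, were left out of this ranking. The window was chosen with its KAS peaks known, so the ranks are a description and nothing further is read from them. Genes that lie inside the 45S genes count the same peaks again. RNA45SN1, with 11 overlapping peaks, had 0.824 per kb and ranked 1 of 30692 genes of at least 5 kb, RNA45SN3 ranked 4 with 0.751 and RNA45SN2 ranked 5 with 0.601. RNA28SN2 and RNA28SN1, which lie inside them, ranked 2 and 3 with 0.791 and 0.790, and RNA28SN3 ranked 16 with 0.396. Among 17711 genes of 5 to 30 kb outside the window that, like the 45S genes, had a peak in 0 pulldown lists, 13 had 5 or more KAS peaks and none more than 7. The most alike by number of KAS peaks and then highest fold, over the 5 lists, were MARCHF2, for a membrane-bound ubiquitin ligase, with 7 peaks and a highest fold of 5.70, and PLIN3, for a lipid droplet protein, with 7 and 7.30. PHYHD1 followed with 6 and 6.56, PRELID3A with 6 and 7.51, and HOOK2, for a microtubule-binding adaptor, with 5 and 6.18. These genes are 21.1 to 29.3 kb long, against 13.4 kb for RNA45SN1.

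Genes of the machinery that makes and processes rRNA were looked up as a list of 40. KAS peaks touched 13 of them (32.5%), against 17.2% of all genes, a share that is not adjusted for gene length. Pulldown peaks touched 0, against at most 0.0268% of all genes in any list, so that this 0 is near the background. POLR1A, the largest subunit of RNA polymerase I, had 2 KAS peaks with a highest fold of 6.21. POLR1C, a subunit shared with RNA polymerase III, had 2 with 6.74, and TTF1, the factor that ends 45S transcription, had 2 with 6.73. POLR1E had 1 peak with a fold of 3.31 and TAF1B, of the promoter selectivity factor, 1 with 4.49. The shared polymerase subunits POLR2E, POLR2F and POLR2H had 1 peak each, with folds of 5.18, 5.58 and 5.20. Of the processing factors, NOP58, a core protein of box C/D particles, had 2 peaks with a highest fold of 5.70. DDX21, a nucleolar helicase, had 1 with 5.93, WDR12 1 with 4.94, UTP20 1 with 4.87 and NPM1, for nucleophosmin, 1 with 4.49. No KAS peak touched UBTF, which binds the rDNA promoter, RRN3, which recruits the polymerase to it, or FBL and NCL, for fibrillarin and nucleolin.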

How the data were processed

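Peak lists of 1 KAS and 4 pulldown libraries from HL-60 cells were used, 1 list per library. The submitters' processing notes name the build GRCh38.p13 and, with no settings, MACS2 2.2.7.1, BWA, bedtools 2.30.0, Picard 2.27.4 and SAMtools 1.6. The deposited columns follow the MACS2 layout: the authors' pileup signal, not normalized between libraries, the authors' fold enrichment, a ratio over the caller's background, and the deposited −log10 p and −log10 q. Peak numbering starts at 259, 195, 249 and 257 in pulldown replicates 1 to 4 and at 1951 in KAS; peaks of lower number, which could lie on unplaced rDNA, were not analysed here. No list gives its library's total, so read depth is unknown, and intervals and limits cover counting error only.

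Summits were placed in the spans of a RefSeq table of GRCh38.p14, whose chromosome coordinates are those of GRCh38.p13, and gene overlap needed 1 shared base. Hairpin sequences came from RefSeq on the same build; 3 of the 6 miRNA genes in the window matched. Named genes were all rRNA genes and other genes of the window, genes of the rRNA machinery list with a peak, and 5 genes most alike; genes of that list without a peak were chosen after their values were seen. Members and lists were chosen with earlier results of these data known. Scripts ran in Python 3.11.15 with SciPy 1.17.1, pandas 2.3.3, matplotlib 3.10.9 and NumPy 2.4.6. On simulated data, 1350 of 1350 positions were placed in their class and 25 of 25 planted pairs matched.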

Additional observations from a re-analysis of the deposited data

How the results depend on the processing

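With any overlap in place of the summit, or only peaks with a −log10 q of at least 5, the 92 KAS peaks stayed 92, and from the first to the last 45S gene there were 73. With the 50% of KAS peaks of higher fold, 19 peaks were left in the window, of which 42.1% were in 45S genes. Under the same setting, chosen for these values after seeing the data, 0% of 18S and 4.94% of 28S bases were covered, against 3.34% and 34.3%. Grouping summits within 500 bases by distance from the 45S start gave 26 positions held by at least 2 complete copies, within 200 bases 24, and within 1000 bases 14, since groups merge. Matching within 100 bases, also added later, left 13 pairs between RNA45SN2 and RNA45SN3, and within 500 bases 18. Pulldown counts were 0 under every setting tried, and between 0 and 0 with each replicate left out. The planned overlap of pulldown peaks with KAS peaks in the window gives no value. No paired analysis was possible because the numbered inputs were not analysed here and KAS is a single library.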
